A study of Homo sapiens with 6 samples.

Results

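The human prostate carcinoma line Du145 was used to ask which transcripts differ when TSC2 is knocked down in hypoxia. Knockdown cells (shTSC2) had been infected with a lentivirus carrying a short hairpin RNA against TSC2. Control cells were of the same line. Both were kept at 1% oxygen for 24 h, in medium rich in glucose with added serum, before RNA was taken. Of the 6 arrays of the series, 4 were compared here, 2 of shTSC2 and 2 of control, over 18417 genes drawn from 33297 probe sets. The remaining arrays were of knockdown cells that the labels call adapted. Apart from alternative settings, they entered only the estimate of the spread and the choice of 1 probe set for each gene. The sources used here do not say whether control cells received a virus, how many hairpins were used, or whether a group's arrays were hybridised with RNA of different cultures. The spread that p-values rest on may thus be technical, and effects of infection cannot be told apart from those of lower TSC2.

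TSC2 is the GTPase-activating subunit of the TSC complex, which keeps RHEB inactive and so holds back mTORC1, the kinase that couples cell growth to nutrients and growth factors. Low oxygen engages this brake, and cells without it keep mTORC1 active when oxygen falls. mTORC1 is known for promoting the synthesis of ribosomes, lipids and nucleotides and for restraining autophagy.

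The log2 intensity of TSC2 was 7.52 and 7.59 on the control arrays and 6.67 and 6.55 on the shTSC2 arrays. Both shTSC2 arrays lay below both control arrays, and the change, the shTSC2 mean minus the control mean, was -0.95 (SE 0.10, adjusted p = 0.00102). Each change below is such a difference of log2 intensity, given with its standard error (SE) for 2 arrays a group. The adjusted p is two-sided, from limma with Benjamini-Hochberg adjustment across the 18417 genes, and a gene passed below 0.05. In all, 3833 genes (20.8%) passed, of which 1266 (6.87%) rose and 2567 (13.9%) fell. These shares are the background for every family, so more falls than rises in a family is also what all genes show. With dim genes left out, those under the median level, 1078 rose and 2264 fell of 9209, which are larger shares. The background thus includes many dim genes, and families of bright genes are set against it without a match for level. With each array centred on its median gene the split was 1802 rises and 2257 falls, with quantile normalization 1891 and 2111, and with centring on all probe sets, an alternative added after the data were seen, 868 and 2962. Without control 1 the counts were 335 and 1149, and without control 2 they were 228 and 947. The genes that fell were long, with a median span of 63.8 kb from start to end in the genome, against 13.8 kb for those that rose and 24.5 kb over all genes with a span. A family of long genes therefore shares this feature with the falling genes in general. The median span is given below beside some families, and not beside every family of long genes. A fit with each array's trend with span removed called 1337 rises and 2321 falls. Calls lost when the replicate number of the arrays was fitted as a block are given in the closing paragraph, not beside each gene.

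Markers were checked against the labelled cell type first. The epithelial keratin KRT8 stood at 11.24 and 11.22 in control and 11.50 and 11.49 in shTSC2, and the 8 prostate luminal and androgen target genes measured had mean log2 levels of 3.65 to 6.30, with 0 rises and 0 falls. Du145 is known as a line without androgen receptor signalling. The epithelial keratin KRT19 was at 8.47 and 8.24 in control and 6.97 and 6.98 in shTSC2, a fall of 1.38 (SE 0.24, adjusted p = 0.00664). EPCAM, an epithelial adhesion molecule named after its value was seen, was at 8.06 and 7.61 in control and 6.06 and 7.04 in shTSC2, a fall of 1.28 (SE 0.32, adjusted p = 0.0271). Its other probe set changed by -0.85 (limma adjusted p = 0.00148 with every probe set tested). The lost calls of EPCAM given below are those of the first probe set. KRT7 rose by 0.44, so that 1 of the 9 epithelial markers rose and 2 fell. Of 14 lymphoid and myeloid markers 2 rose, the lysosomal glycoprotein CD68 (0.62) and the Fc receptor chain FCER1G (0.62). The pan-leukocyte gene PTPRC, named after its value was seen, was at 3.58 and 3.49 in control and 3.58 and 3.54 in shTSC2. The intensities of these 14 markers summed to 671 and 665 on the control arrays and 841 and 837 on the shTSC2 arrays. That sum includes CD68, the brightest of them, at log2 7.80 and 7.70 in control and 8.41 and 8.33 in shTSC2, while 12 of the markers did not pass. Fibroblast (10) and endothelial (10) lists had 0 rises and 0 falls. Among the 8 embryonic kidney markers 1 rose, PAX2 (0.48, SE 0.10, adjusted p = 0.0121). The call of KRT19 ended without control 1 (adjusted p = 0.0655). The call of CD68 ended without control 2 (adjusted p = 0.0807). The call of PAX2 ended without control 1 or control 2 (adjusted p = 0.0815 to 0.114). The call of EPCAM ended without control 1, control 2 or shTSC2 1 (adjusted p = 0.0593 to 0.181). The call of FCER1G ended without control 1, control 2 or shTSC2 1 or with the span trend removed (adjusted p = 0.0731 to 0.191). The call of KRT7 ended without control 1, control 2 or shTSC2 2 or with centring on all probe sets (adjusted p = 0.0649 to 0.189).

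Genes of the circadian clock changed in both directions. BMAL1, which pairs with CLOCK to drive E-box genes, fell, while the nuclear receptors NR1D1 and NR1D2 (REV-ERB alpha and beta), which repress BMAL1 through ROR elements, rose together with PER2, a repressor of the BMAL1 and CLOCK pair. BMAL1 stood at 7.75 and 7.82 in control and 6.32 and 6.19 in shTSC2, a fall of 1.53 (SE 0.13, adjusted p = 0.000596), to 34.6% of the control intensity. NR1D2 was at 5.19 and 5.34 in control and 6.54 and 6.12 in shTSC2 (1.06, SE 0.18, adjusted p = 0.00615). NR1D1 was at 6.61 and 6.76 in control and 7.38 and 7.21 in shTSC2 (0.61, SE 0.11, adjusted p = 0.00726). On these genes the knockdown and control arrays did not overlap.
PER2 rose by 0.65 (SE 0.18, adjusted p = 0.039). CRY1, the partner of the PER proteins and named after its value was seen, was at 8.64 and 8.41 in control and 9.21 and 9.01 in shTSC2 and rose by 0.58 (SE 0.12, adjusted p = 0.0141). BMAL2, a relative of BMAL1, fell by 0.40 and CSNK1D, a kinase that marks PER proteins for degradation, by 0.42. CLOCK (-0.64, adjusted p = 0.0508) and PER1 (0.52, adjusted p = 0.139) did not pass, and are named after their values were seen. Of the 22 clock genes measured 4 rose (18.2%) and 3 fell (13.6%), with a median change of 0.10 against 0.03 over all genes. With centring on all probe sets 3 rose and 4 fell. The count of rises went to 1 without control 1 and 2 without control 2, and that of falls to 1 in each case. The calls of NR1D1 and NR1D2 ended without control 1 (adjusted p = 0.0627 to 0.0806). The call of CRY1 ended without control 2 (adjusted p = 0.133). The call of CSNK1D ended without control 1 or control 2 (adjusted p = 0.123 to 0.146). The call of PER2 ended without control 1, control 2 or shTSC2 2, in a fit of the 4 arrays alone or with centring on all probe sets (adjusted p = 0.0515 to 0.198). The call of BMAL2 ended without control 1, control 2, shTSC2 1 or shTSC2 2, in a fit of the 4 arrays alone, with the span trend removed, with array weights, with quantile normalization or with median centring (adjusted p = 0.05 to 0.267).

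The RefSeq promoters of these genes (GRCh38.p14) were searched for the elements by which the loop is known. The windows searched ran from 250 bases before to 50 after each annotated start, and both strands were read. The core of the ROR element, spelled TAGGTNA, was found in 983 of 14239 genes with a window (6.90%), in 6.06% of those that rose and in 6.77% of those that fell. BMAL1 holds it at 2 places, bases -6 to 1 and 31 to 37, counted from the start site. These differ at the base that the spelling leaves free, so finding both was no test of the element. The E-box CACGTG was found in 10.9% of all genes with a window, in 14.7% of those that rose and in 10.7% of those that fell. NR1D2 holds it at 2 places, bases -155 to -150 and -105 to -100, while no window of NR1D1, PER2 or CRY1 holds these letters. PER1 holds the E-box at bases -173 to -168. CRY2, a relative of CRY1 named for its motif, holds the ROR core at bases -65 to -59, and like PER1 it did not pass (0.36, adjusted p = 0.0631). The stretches are shown because BMAL1 and NR1D2 had the largest fall and the largest rise of the family, with the elements in capitals.
BMAL1, chr11:13277740-13277794, plus strand: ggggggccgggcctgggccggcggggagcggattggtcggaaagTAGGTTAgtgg
BMAL1, chr11:13277808-13277832, plus strand: gaaggcagaaagTAGGTCAgggacg
NR1D2, chr3:23945946-23946041, plus strand: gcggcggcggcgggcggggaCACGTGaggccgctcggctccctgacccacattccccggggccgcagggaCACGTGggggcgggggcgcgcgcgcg
A match describes the letters only and says nothing of binding in these cells.

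**Figure D1:**
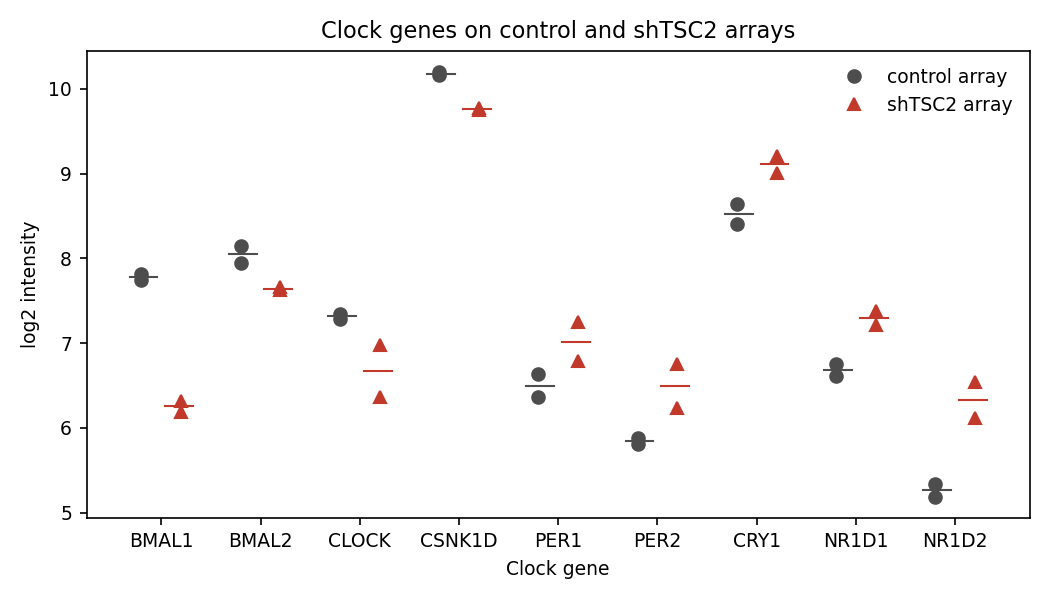
Log2 intensity (y axis) of the clock genes named in the text other than CRY2, by gene (x axis), with 1 point for each control array (circles) and each shTSC2 array (triangles) and a bar at each group mean. BMAL1 is lower on both shTSC2 arrays (6.32 and 6.19) than on both control arrays (7.75 and 7.82), and NR1D2 is higher (6.54 and 6.12 against 5.19 and 5.34).

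The Krüppel-like factors KLF10 and KLF4, the nuclear receptors NR4A3 and NR4A2 and genes of the prostaglandin route rose, while SP1, SP2 and NR3C1 fell. KLF10, a repressor known as an early TGF-beta response gene, was at 8.54 and 8.48 in control and 9.98 and 9.74 in shTSC2. KLF4, a factor of epithelial differentiation, was at 6.07 and 6.07 in control and 7.19 and 7.07 in shTSC2. They rose by 1.35 (SE 0.11, adjusted p = 0.000583) and 1.06 (SE 0.10, adjusted p = 0.000765), and no setting tried ended either call. The orphan nuclear receptors NR4A3 (0.87, SE 0.14, adjusted p = 0.00513) and NR4A2 (0.69, SE 0.18, adjusted p = 0.0363) also rose. SP1, a broadly used GC-box factor of the same zinc finger family, fell by 1.09 (SE 0.10, adjusted p = 0.000805) and SP2 by 0.97 (SE 0.12, adjusted p = 0.00195). NR3C1, the glucocorticoid receptor, fell by 0.80 (SE 0.12, adjusted p = 0.00369). Rises and falls were 7 (18.4%) and 6 (15.8%) among 38 nuclear receptors, and 2 and 6 (24.0%) among 25 KLF and SP factors. The nuclear receptor list overlaps the clock list: its largest rise (1.06) is NR1D2, already counted there, so its rises are not a separate result. They were 5 and 9 for nuclear receptors with centring on all probe sets, and 3 and 3 for KLF and SP factors with median centring or the span trend removed.
PTGS2, the inducible cyclooxygenase that starts prostaglandin synthesis, was at 4.20 and 4.26 in control and 6.35 and 6.07 in shTSC2, a rise of 1.98 (SE 0.12, adjusted p = 0.000256). Its control arrays were dim, under the first-quartile intensity of the array (4.33), and may hold background signal, which leaves the size of the rise uncertain. PTGER4, a receptor for prostaglandin E, was at 6.84 and 6.65 in control and 8.63 and 8.24 in shTSC2 (1.69, SE 0.15, adjusted p = 0.000643). The phospholipase PLA2G4C rose by 0.64. Both shTSC2 arrays exceeded both control arrays for each of these. PTGES3, a prostaglandin E synthase also known as the HSP90 co-chaperone p23, was the 1 member of the 33 that fell (-0.90), beside 4 that rose (12.1%). With centring on all probe sets 3 rose and 3 fell there. The calls of NR4A3 and PLA2G4C ended without control 2 (adjusted p = 0.051 to 0.0582). The call of PTGES3 ended without control 1 or control 2 (adjusted p = 0.0939 to 0.119). The call of NR4A2 ended without control 1 or shTSC2 1, in a fit of the 4 arrays alone, with the span trend removed or with array weights (adjusted p = 0.0599 to 0.2). Over the 96 genes of the 3 lists here, rises and falls numbered 13 and 13, then 6 and 4 without control 1 and 7 and 3 without control 2.

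Receptors for the death ligand TRAIL rose, as did cytochrome c, while 2 caspases fell. TNFRSF10D, a TRAIL receptor with a truncated death domain that acts as a decoy, was at 10.27 and 10.09 in control and 11.09 and 10.87 in shTSC2 (0.80, SE 0.12, adjusted p = 0.00348). The death-domain TRAIL receptor TNFRSF10A was at 8.08 and 7.90 in control and 8.53 and 8.49 in shTSC2 (0.52, SE 0.10, adjusted p = 0.0124). TNFRSF10B, its close relative and named after its value was seen, was at 9.66 and 9.50 in control and 10.05 and 9.97 in shTSC2 (0.43, SE 0.11, adjusted p = 0.0274). RELT also rose (0.48). TNFRSF1A, the main receptor of TNF itself, fell (-0.63). Of 42 TNF ligands and receptors 5 rose (11.9%) and 1 fell (2.38%).
Downstream of the receptors, CFLAR, an inhibitor of caspase 8 activation, was at 7.24 and 7.39 in control and 6.61 and 6.55 in shTSC2 (-0.74, SE 0.13, adjusted p = 0.00755), and its other probe set changed by -1.94. CASP6, an executioner caspase, was at 6.97 and 7.02 in control and 6.02 and 5.50 in shTSC2 (-1.24, SE 0.16, adjusted p = 0.00251). The initiator caspase of the mitochondrial route, CASP9, fell by 0.67. CYCS, the cytochrome c that activates CASP9 once it leaves mitochondria, was at 8.65 and 8.74 in control and 9.59 and 10.03 in shTSC2, a rise of 1.11 (SE 0.15, adjusted p = 0.00239). The ubiquitin ligase BIRC2 rose by 0.39. These 30 caspases, inhibitors and adaptors had 2 rises and 4 falls, and 5 rises and 4 falls with quantile normalization or with median centring over genes. The calls of TNFRSF10A, CFLAR and CASP9 ended without control 2 (adjusted p = 0.0512 to 0.126). The calls of RELT and TNFRSF1A ended without control 1 or control 2 (adjusted p = 0.0741 to 0.0988). The call of BIRC2 ended without control 1 or control 2 or with centring on all probe sets (adjusted p = 0.0763 to 0.147). The call of TNFRSF10B ended without control 1, control 2 or shTSC2 1 or with centring on all probe sets (adjusted p = 0.0561 to 0.217). Over the 72 genes of the 2 lists here, rises and falls numbered 7 and 5, then 3 and 3 without control 1 and 3 and 1 without control 2.

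**Figure D2:**
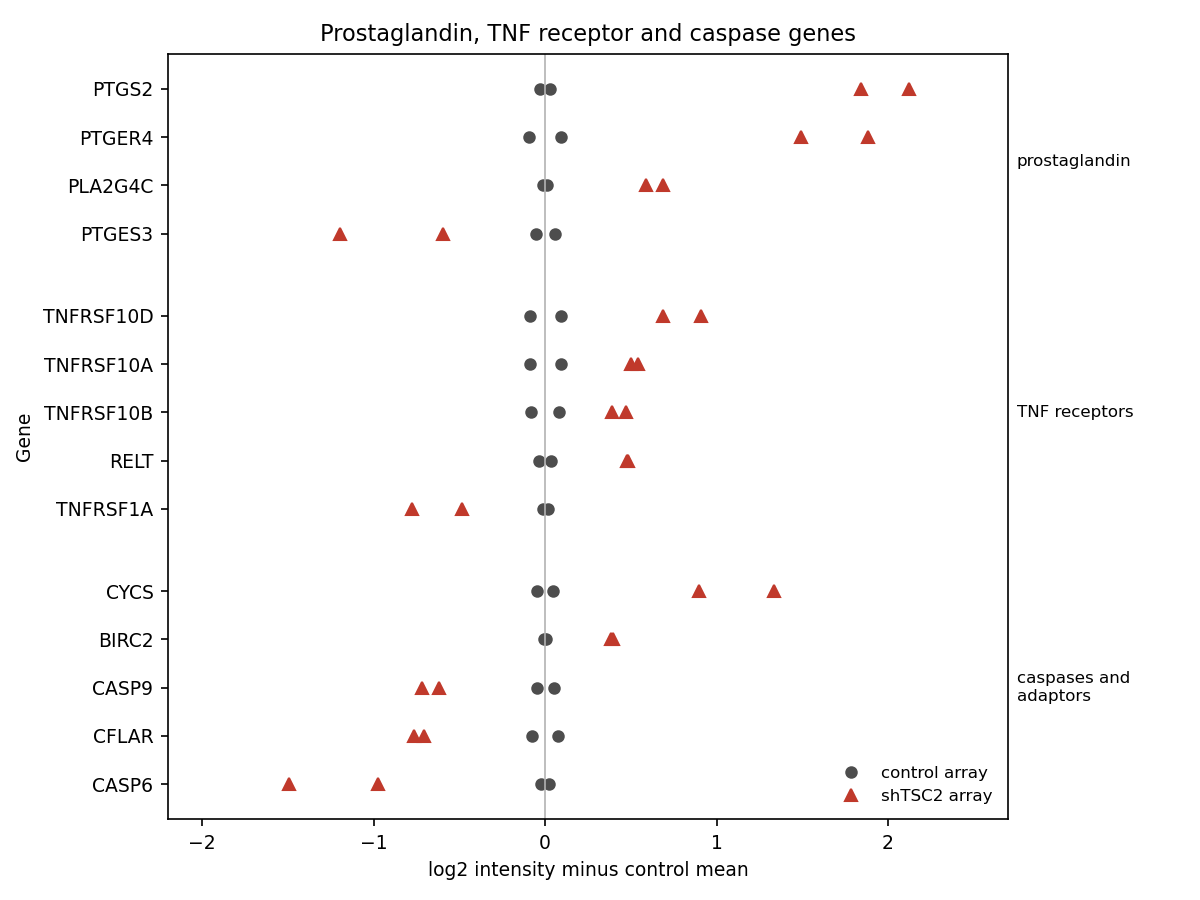
Difference of each array's log2 intensity from the control mean (x axis) for genes of the prostaglandin, TNF receptor and caspase groups (y axis), with circles for control arrays and triangles for shTSC2 arrays. PTGS2, PTGER4 and CYCS lie to the right on both shTSC2 arrays, and CASP6, PTGES3 and CFLAR to the left.

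In 3 of 6 lists of signalling genes, those of BMP, Wnt and cyclic AMP signalling, the share that fell was near the 13.9% of all genes. BMPR2, the type 2 receptor for bone morphogenetic proteins, was at 7.94 and 7.93 in control and 5.84 and 6.45 in shTSC2 (-1.79, SE 0.18, adjusted p = 0.00102). Its target ID1, an inhibitor of basic helix-loop-helix factors, was at 8.55 and 8.47 in control and 7.38 and 6.31 in shTSC2 (-1.67, SE 0.29, adjusted p = 0.00743). Its relative ID2 was at 6.46 and 6.60 in control and 7.82 and 7.25 in shTSC2 (1.00, SE 0.21, adjusted p = 0.0146). The BMP list had 1 rise and 4 falls (13.8%) among 29 genes.
The Wnt receptors LRP6 (-0.87, SE 0.12, adjusted p = 0.00291), LRP5 (-0.99, SE 0.18, adjusted p = 0.0078) and LGR4 (-1.09, SE 0.13, adjusted p = 0.00151) fell, within a list of 55 with 1 rise and 8 falls (14.5%). In the Notch pathway, with 5 rises and 9 falls of 42 (21.4%), the ligand DLL4 was at 5.40 and 5.36 in control and 6.25 and 6.07 in shTSC2, a rise of 0.78, and the target HES7 rose by 0.66. NUMB, an inhibitor of Notch receptors, was at 8.58 and 8.74 in control and 7.35 and 7.24 in shTSC2 (-1.36, SE 0.16, adjusted p = 0.00163). ADAM10, the protease that sheds their outer part, fell by 0.80 (SE 0.09, adjusted p = 0.00149).
RAS family proteins and their regulators had 0 rises and 12 falls of 46 (26.1%). SOS1, which loads RAS with GTP, fell by 1.09 (SE 0.13, adjusted p = 0.00162) and RASAL2, which helps RAS hydrolyse it, by 1.31 (SE 0.18, adjusted p = 0.00295). PRKACB, a catalytic subunit of protein kinase A, was at 7.13 and 7.08 in control and 5.45 and 5.43 in shTSC2 (-1.67, SE 0.11, adjusted p = 0.000332). PDE3B, which degrades cyclic AMP, was at 7.47 and 7.36 in control and 5.95 and 6.05 in shTSC2 (-1.42, SE 0.10, adjusted p = 0.00038). The cyclic AMP list had 2 rises and 7 falls of 51 (13.7%), or 4 and 4 with the span trend removed. Receptor tyrosine phosphatases, genes with a median span of 184 kb, had 0 rises and 5 falls of 16 (31.2%), with PTPRK at 7.32 and 7.18 in control and 5.44 and 5.90 in shTSC2 (-1.58, SE 0.17, adjusted p = 0.00117). PTPRE was at 7.11 and 7.22 in control and 5.57 and 5.66 in shTSC2 (-1.55, SE 0.13, adjusted p = 0.000612). The calls of ID1, ID2, LRP5 and HES7 ended without control 1 or control 2 (adjusted p = 0.0625 to 0.128). Over the 239 genes of the 6 lists here, rises and falls numbered 9 and 45, then 2 and 23 without control 1 and 1 and 21 without control 2.

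Among genes for actin filaments and for microtubules, the tracks and struts of the cell skeleton, falls outnumbered rises, as they did over all genes. Actins and their nucleators had 3 rises (9.68%) and 8 falls (25.8%) of 31, against 6.87% and 13.9% of all genes. Among the falls were the formin DIAPH3 (-1.05, SE 0.12, adjusted p = 0.0016) and WASF2 (-0.93, SE 0.13, adjusted p = 0.00294). Tubulins had 2 rises (9.09%) and 7 falls (31.8%) of 22 with a median span of 8.29 kb. With quantile normalization the 2 lists together had 5 rises and 11 falls. TUBB, a main beta tubulin of dividing cells, was at 12.71 and 12.68 in control and 11.89 and 11.50 in shTSC2, a fall of 1.00 (SE 0.14, adjusted p = 0.00331). TUBB4B fell by 0.78 and TUBA1C by 0.84, while TUBA4A rose by 0.87. Tubulin genes are close copies of each other, so signal may be shared between their probes. The call of TUBA4A ended without control 1, control 2 or shTSC2 1 (adjusted p = 0.0656 to 0.143). Over the 53 genes of the 2 lists here, rises and falls numbered 5 and 15, then 0 and 8 without control 1 and 0 and 7 without control 2.

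Among genes of the centrosome, the nuclear envelope and nuclear transport, falls outnumbered rises in each list. Centrosomal proteins had 2 rises and 21 falls of 53 (39.6%), with a median change of -0.41. Their median span was 79 kb. With the span trend removed they had 2 rises and 19 falls, with a median change of -0.20. SASS6, which builds the cartwheel of new centrioles, was at 7.37 and 7.30 in control and 6.33 and 6.26 in shTSC2 (-1.04, SE 0.09, adjusted p = 0.000692). The centriole protein POC1A was at 7.31 and 7.05 in control and 6.24 and 6.06 in shTSC2 (-1.03, SE 0.13, adjusted p = 0.00227). The centrosome is duplicated in step with DNA replication.
The lamina and the bridges from it to the cytoskeleton had 0 rises and 7 falls of 18 (38.9%). LMNB1, a lamin of the nuclear envelope, was at 9.70 and 9.57 in control and 7.82 and 8.26 in shTSC2 (-1.59, SE 0.19, adjusted p = 0.00162). LEMD3 (-1.09, SE 0.10, adjusted p = 0.000664) and SUN2 (-0.84, SE 0.10, adjusted p = 0.00185) of the inner nuclear membrane also fell. LMNA was at 8.75 and 8.67 in control and 8.76 and 8.68 in shTSC2, a change of 0.01 (adjusted p = 0.96). LMNB2 was at 9.48 and 9.40 in control and 9.39 and 9.36 in shTSC2, a change of -0.06 (adjusted p = 0.763). These lamins are named after their values were seen. Nuclear pore proteins had 0 rises and 9 falls of 29 (31.0%), led by NUP37 (-1.16, SE 0.13, adjusted p = 0.00155), NUP85 (-0.93, SE 0.11, adjusted p = 0.00182) and NUP153 (-0.88, SE 0.14, adjusted p = 0.00463). Transport receptors had 2 rises (8%) and 6 falls (24%) of 25. The median spans of the pore and transport lists were 58.8 kb and 66.9 kb. With the span trend removed 8 and 5 of their genes were called lower. XPO1, the main exporter of proteins with a leucine-rich signal, was at 10.52 and 10.55 in control and 8.86 and 9.29 in shTSC2 (-1.46, SE 0.15, adjusted p = 0.00101). KPNA3, an adaptor for import, was at 8.76 and 8.90 in control and 7.31 and 7.02 in shTSC2 (-1.67, SE 0.12, adjusted p = 0.000447). The call of NUP153 ended without control 2 (adjusted p = 0.0527). Over the 125 genes of the 4 lists here, rises and falls numbered 4 and 43, then 0 and 27 without control 1 and 0 and 20 without control 2.

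Some subunits of the RNA polymerases that make ribosomal and transfer RNA rose and none passed as lower, while more coactivators of RNA polymerase II fell than rose. Of 17 subunits of polymerases I and III 7 rose (41.2%) and 0 fell, with a median change of 0.23. POLR3G, a subunit of polymerase III, was at 6.89 and 7.02 in control and 8.21 and 7.82 in shTSC2 (1.06, SE 0.14, adjusted p = 0.00235). POLR1C, shared by polymerases I and III, was at 8.40 and 8.17 in control and 9.05 and 9.06 in shTSC2 (0.77, SE 0.11, adjusted p = 0.00311). POLR3C rose by 0.60. With the span trend removed the list had 4 rises and 1 fall.
Polymerase II had 2 rises and 2 falls of 12: its largest subunit POLR2A was at 9.20 and 9.02 in control and 9.92 and 10.06 in shTSC2 (0.88, SE 0.17, adjusted p = 0.0117). Its second largest, POLR2B, was at 10.89 and 10.90 in control and 10.19 and 10.03 in shTSC2 (-0.79, SE 0.10, adjusted p = 0.00248). Mediator, which passes signals from bound factors to the polymerase, had 1 rise and 13 falls of 30 (43.3%) at a median span of 21.7 kb, near that of all genes. CDK19, a kinase of its regulatory module, was at 7.64 and 7.86 in control and 5.63 and 6.35 in shTSC2 (-1.76, SE 0.23, adjusted p = 0.00243). MED13L of the same module was at 8.36 and 8.48 in control and 6.77 and 7.27 in shTSC2 (-1.40, SE 0.18, adjusted p = 0.00209). The core subunit MED21 was at 7.93 and 7.78 in control and 6.75 and 6.25 in shTSC2 (-1.35, SE 0.16, adjusted p = 0.0018).
Integrator, which cleaves small nuclear RNAs and ends short transcripts, had 1 rise and 7 falls of 15 (46.7%). INTS3 was at 9.89 and 9.88 in control and 8.16 and 7.99 in shTSC2 (-1.81, SE 0.11, adjusted p = 0.000256), and its other probe set changed by -1.05. INTS2 was at 8.23 and 8.30 in control and 6.58 and 6.75 in shTSC2 (-1.60, SE 0.11, adjusted p = 0.000344). INTS9, of the cleavage module, fell by 0.96 (SE 0.10, adjusted p = 0.00104). The calls of POLR3C and POLR2A ended without control 1 or control 2 (adjusted p = 0.0594 to 0.108). Over the 74 genes of the 4 lists here, rises and falls numbered 11 and 22, then 2 and 13 without control 1 and 2 and 12 without control 2.

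Proteins that package, splice and shorten messenger RNA fell more often than they rose. hnRNP proteins had 0 rises and 6 falls of 20 (30%) and SR proteins 0 and 4 of 17 (23.5%), at median spans of 13.4 kb and 18.2 kb. HNRNPDL was at 9.79 and 9.79 in control and 8.49 and 8.81 in shTSC2 (-1.14, SE 0.12, adjusted p = 0.00123). HNRNPR fell by 0.92 (SE 0.10, adjusted p = 0.00122). The splicing factor SRSF3 was at 10.65 and 10.54 in control and 9.85 and 9.40 in shTSC2 (-0.97, SE 0.15, adjusted p = 0.00445).
Deadenylation, which removes the poly(A) tail before decay, had 5 rises and 11 falls of 25 (44.0% fell). The median span of that list was 56.8 kb, and with the span trend removed it had 5 rises and 10 falls. CNOT2, a subunit of the CCR4-NOT deadenylase, was at 8.74 and 8.94 in control and 7.18 and 7.57 in shTSC2 (-1.47, SE 0.15, adjusted p = 0.00101). PAN3 of the other deadenylase was at 8.75 and 8.81 in control and 7.22 and 7.41 in shTSC2 (-1.47, SE 0.14, adjusted p = 0.00091). The antiproliferative BTG and TOB proteins recruit CCR4-NOT. BTG1 was at 9.11 and 9.27 in control and 7.76 and 7.93 in shTSC2 (-1.34, SE 0.18, adjusted p = 0.00249). TOB1 was at 9.10 and 9.24 in control and 10.09 and 9.99 in shTSC2 (0.87, SE 0.11, adjusted p = 0.00203). TOB2 rose by 0.59.
Enzymes and readers of RNA methylation and editing had 0 rises and 7 falls of 15 (46.7%). FTO, which removes methyl groups from adenosine, was at 8.06 and 8.23 in control and 7.06 and 6.97 in shTSC2 (-1.13, SE 0.11, adjusted p = 0.000805). The editing enzyme ADARB1 fell by 0.98 (SE 0.10, adjusted p = 0.000984) and ZC3H13, of the methylating complex, by 0.81 (SE 0.09, adjusted p = 0.0016). The microRNA route had 3 rises and 3 falls of 15. DICER1, which cuts precursors, was at 8.08 and 8.09 in control and 8.77 and 9.01 in shTSC2 (0.81, SE 0.12, adjusted p = 0.00333). DGCR8 rose by 0.78 and its partner DROSHA fell by 0.69, while AGO4 fell by 1.09 (SE 0.15, adjusted p = 0.00294) and TNRC6B by 0.71 (SE 0.10, adjusted p = 0.00354). The call of SRSF3 ended without control 1 (adjusted p = 0.0503). The calls of TOB2, DGCR8 and DROSHA ended without control 1 or control 2 (adjusted p = 0.0528 to 0.0949). Over the 92 genes of the 5 lists here, rises and falls numbered 8 and 31, then 3 and 15 without control 1 and 2 and 15 without control 2.

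Chromatin enzymes fell more often than they rose in 3 of the 4 lists. Histone demethylases had 1 rise and 13 falls of 25 (52.0%), acetyltransferases and bromodomain proteins 2 and 11 of 32 (34.4%), and remodellers 0 and 12 of 31 (38.7%), at median spans of 83.9 kb, 92.0 kb and 83.7 kb. With the span trend removed 11, 7 and 11 of their genes were called lower.
KDM4A, a demethylase of histone H3, was at 8.70 and 8.63 in control and 7.56 and 7.43 in shTSC2 (-1.17, SE 0.10, adjusted p = 0.000596). JMJD1C fell by 1.28 (SE 0.15, adjusted p = 0.00155). KDM6B, which removes the Polycomb mark and is known as inducible, was at 6.75 and 6.88 in control and 7.14 and 7.19 in shTSC2, a rise of 0.35 (SE 0.10, adjusted p = 0.0392). The acetyltransferase KAT6B was at 7.89 and 8.05 in control and 6.25 and 6.58 in shTSC2 (-1.55, SE 0.13, adjusted p = 0.000596). KAT2B was at 7.99 and 7.96 in control and 6.72 and 6.71 in shTSC2 (-1.26, SE 0.10, adjusted p = 0.000536). The reader BRPF1 rose by 0.66 (SE 0.09, adjusted p = 0.0033). SMARCA2, one of the motor subunits of SWI/SNF, was at 7.40 and 7.40 in control and 6.22 and 5.98 in shTSC2 (-1.30, SE 0.11, adjusted p = 0.000615). CHD6 fell by 1.30 (SE 0.13, adjusted p = 0.000845). Polycomb genes had 4 rises and 4 falls of 26, which became 7 and 4 with quantile normalization or median centring, and 1 and 5 with centring on all probe sets. EZH2, the methyltransferase, rose by 0.36 while its cofactor JARID2 fell by 1.20 (SE 0.15, adjusted p = 0.00181) and ASXL1, a partner of the deubiquitinase BAP1, by 1.20 (SE 0.10, adjusted p = 0.000664). The call of EZH2 ended without control 1, control 2, shTSC2 1 or shTSC2 2 or with centring on all probe sets (adjusted p = 0.0624 to 0.2). The call of KDM6B ended without control 1, control 2, shTSC2 1 or shTSC2 2, in a fit of the 4 arrays alone, with the span trend removed or with centring on all probe sets (adjusted p = 0.0571 to 0.262). Over the 114 genes of the 4 lists here, rises and falls numbered 7 and 40, then 1 and 21 without control 1 and 1 and 18 without control 2.

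Among genes that repair or signal double-strand breaks, falls outnumbered rises in both lists, the second of which mixes end joining with damage signalling. Fanconi and homologous recombination genes had 2 rises and 11 falls of 28 (39.3%), and end joining and damage signalling 0 and 6 of 21 (28.6%). Their median spans were 49.9 kb and 61.7 kb. With the span trend removed 9 and 4 of their genes were called lower. RAD50, which tethers broken ends, was at 8.42 and 8.43 in control and 6.66 and 7.07 in shTSC2 (-1.56, SE 0.14, adjusted p = 0.000721). Its partner MRE11, named after its value was seen, was at 6.88 and 7.01 in control and 6.28 and 5.72 in shTSC2 (-0.94, SE 0.19, adjusted p = 0.0118). FANCC, of the Fanconi core complex, fell by 1.45 (SE 0.14, adjusted p = 0.000838). FANCG rose by 0.68.
XRCC4, the scaffold of the ligase that joins ends, was at 8.15 and 7.99 in control and 6.04 and 6.44 in shTSC2 (-1.83, SE 0.15, adjusted p = 0.000536). MDC1, which binds the histone mark of a break, was at 8.11 and 8.02 in control and 6.82 and 6.77 in shTSC2 (-1.27, SE 0.09, adjusted p = 0.00042). Mismatch and excision repair was mixed, with 4 rises and 7 falls of 28, or 5 and 5 with quantile normalization. The damage sensor XPA of nucleotide excision repair was at 7.89 and 7.80 in control and 8.57 and 8.58 in shTSC2 (0.73, SE 0.10, adjusted p = 0.00252). XPC, which finds the lesion first, fell by 0.61. The call of FANCG ended without control 2 (adjusted p = 0.0798). The call of MRE11 ended without control 1 or control 2 (adjusted p = 0.0687 to 0.103). The call of XPC ended without control 1 or control 2 or with quantile normalization (adjusted p = 0.0578 to 0.151). Over the 77 genes of the 3 lists here, rises and falls numbered 6 and 24, then 3 and 9 without control 1 and 1 and 9 without control 2.

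**Figure D3:**
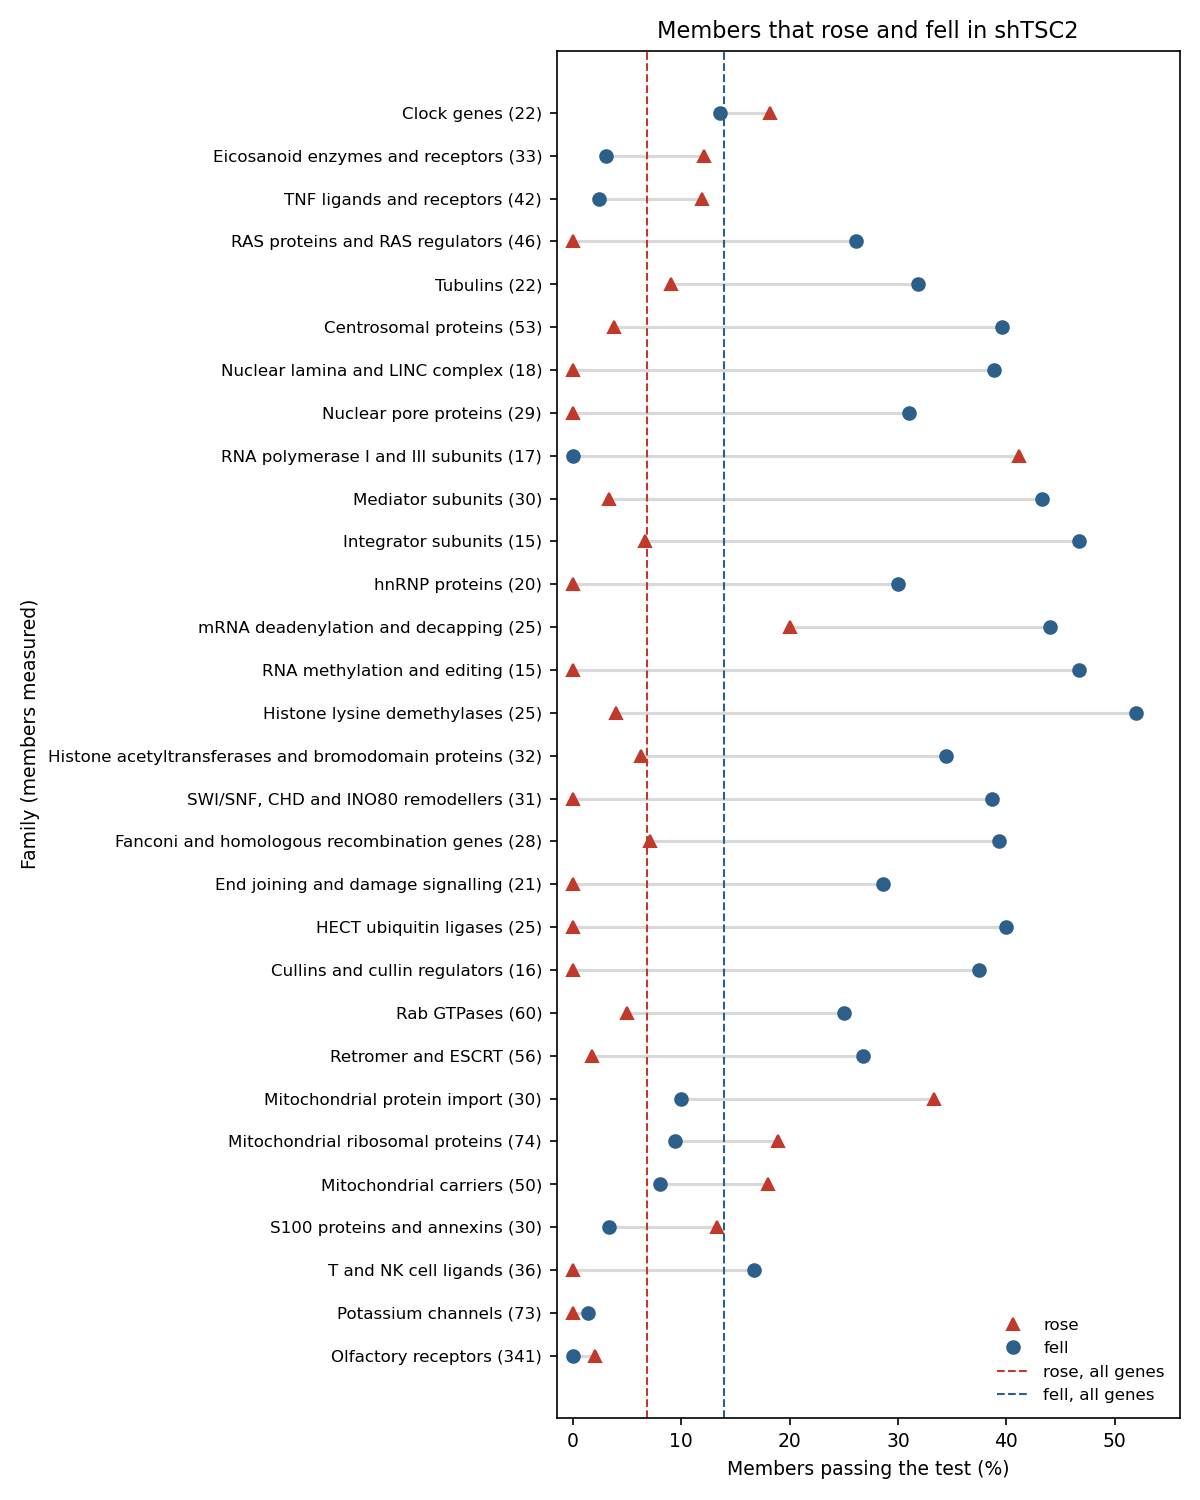
Share of measured members that rose (triangles) and fell (circles) in shTSC2, in percent (x axis), for some of the families described in the text (y axis, with the number of measured members). Dashed lines mark the shares over all 18417 genes (6.87% rose, 13.9% fell). The families shown were picked. Among those described and not shown are the BMP, Wnt, Notch, cyclic AMP, nuclear receptor, actin, SNARE, Polycomb, excision repair and small-molecule lists, several of them mixed or near the background. Histone lysine demethylases, Integrator and RNA methylation and editing lie farthest to the right for falls (52.0%, 46.7% and 46.7%), and RNA polymerase I and III for rises (41.2%).

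Ubiquitin enzymes had more falls than rises in each of 4 lists. Ligases of the HECT type had 0 rises and 10 falls of 25 (40.0%) at a median span of 149 kb, and 5 falls with the span trend removed. Cullins, the scaffolds of the largest ligase class, and their regulators had 0 and 6 of 16 (37.5%), conjugating enzymes 1 and 10 of 30 (33.3%), and ubiquitin-specific proteases 3 and 14 of 48 (29.2%). In that order their median spans were 40.3 kb, 31.5 kb and 66.6 kb. With the span trend removed 4, 7 and 11 of their genes were called lower. AREL1, a HECT ligase that restrains apoptosis, was at 8.44 and 8.46 in control and 7.48 and 6.94 in shTSC2 (-1.24, SE 0.18, adjusted p = 0.00361). CUL2, the scaffold that joins VHL in degrading hypoxia-inducible factors, was at 8.11 and 8.07 in control and 7.20 and 7.32 in shTSC2 (-0.83, SE 0.10, adjusted p = 0.00201). USP40 was at 7.25 and 7.27 in control and 6.01 and 6.02 in shTSC2 (-1.25, SE 0.09, adjusted p = 0.00039). CUL3 fell by 0.67, TRIP12 by 0.84 (SE 0.14, adjusted p = 0.00586), and the conjugating enzyme UBE2G1 by 0.84 (SE 0.12, adjusted p = 0.00323). USP36, a nucleolar protease, was at 6.78 and 6.53 in control and 7.42 and 7.40 in shTSC2, a rise of 0.75 (SE 0.13, adjusted p = 0.00712). The call of CUL3 ended without control 1 (adjusted p = 0.058). The calls of TRIP12 and USP36 ended without control 2 (adjusted p = 0.0652 to 0.0793). Over the 119 genes of the 4 lists here, rises and falls numbered 4 and 40, then 1 and 13 without control 1 and 0 and 10 without control 2.

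Membrane traffic genes fell more often than they rose in 4 lists and, under some settings only, in the fifth. Rab GTPases, which mark vesicle identity, had 3 rises and 15 falls of 60 (25.0%), and retromer and ESCRT genes, which sort cargo at endosomes, 1 and 15 of 56 (26.8%). RAB10, known for carrying the glucose transporter GLUT4 to the surface, was at 9.74 and 9.79 in control and 7.91 and 8.51 in shTSC2 (-1.55, SE 0.18, adjusted p = 0.00156). RAB11A of the recycling endosome was at 10.16 and 10.23 in control and 9.19 and 8.99 in shTSC2 (-1.10, SE 0.12, adjusted p = 0.00117). SNX10 fell by 1.27 (SE 0.14, adjusted p = 0.00146), and VPS4B, the ATPase that takes ESCRT filaments apart, by 0.97 (SE 0.13, adjusted p = 0.00251).
Fusion proteins of the SNARE family were more even, with 6 rises and 9 falls of 41, which became 10 and 4 with quantile normalization. STX8, a SNARE of late endosomes, was at 7.10 and 7.09 in control and 5.92 and 5.91 in shTSC2 (-1.18, SE 0.10, adjusted p = 0.000596). STX3 of the apical membrane was at 7.09 and 6.83 in control and 7.60 and 7.77 in shTSC2 (0.72, SE 0.12, adjusted p = 0.00609). Endocytic genes had 4 rises (8.7%) and 10 falls (21.7%) of 46. FCHO2 and EPS15, early factors of the clathrin pit, were lower by 1.05 (SE 0.11, adjusted p = 0.00103) and 1.06 (SE 0.14, adjusted p = 0.00268). The coats of the secretory route had 2 rises (5.71%) and 8 falls (22.9%) of 35. The falls were led by ARCN1, the delta subunit of COPI, at 9.99 and 9.98 in control and 8.88 and 8.77 in shTSC2 (-1.16, SE 0.10, adjusted p = 0.000596). The call of STX3 ended without control 2 (adjusted p = 0.0686). Over the 238 genes of the 5 lists here, rises and falls numbered 16 and 57, then 2 and 28 without control 1 and 1 and 22 without control 2.

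Mitochondrial supply genes were among the few groups in which rises outnumbered falls. Protein import had 10 rises (33.3%) and 3 falls of 30, carriers of the inner membrane 9 (18.0%) and 4 of 50, and mitochondrial ribosomal proteins 14 (18.9%) and 7 of 74, against 6.87% of all genes. Import and ribosomal genes are short (median spans 12.2 kb and 8.64 kb), and with the span trend removed import had 4 rises and 5 falls and the ribosomal list 10 and 10, so the excess of rises did not hold there. Import had 4 rises without control 1, 1 without control 2 and 6 without shTSC2 2. The ribosomal list had 9 and 9 with centring on all probe sets.
TOMM34, a cytosolic chaperone of import, was at 8.73 and 8.58 in control and 9.50 and 9.40 in shTSC2 (0.79, SE 0.11, adjusted p = 0.00316). TOMM40, the channel of the outer membrane, was at 7.97 and 7.76 in control and 8.47 and 8.73 in shTSC2 (0.73, SE 0.12, adjusted p = 0.00622). The receptor TOMM70 fell by 0.55. SLC25A25, a carrier that moves ATP-magnesium against phosphate, was at 6.26 and 6.03 in control and 7.63 and 7.25 in shTSC2 (1.29, SE 0.15, adjusted p = 0.00155). SLC25A33, which brings in pyrimidine nucleotides, rose by 0.70, and SLC25A12, the aspartate and glutamate carrier, fell by 0.99 (SE 0.13, adjusted p = 0.00217). MRPL32 was at 8.49 and 8.35 in control and 9.18 and 9.20 in shTSC2 (0.77, SE 0.10, adjusted p = 0.00195). Genes of fusion, fission and biogenesis had 4 rises and 8 falls of 24, or 4 and 2 with quantile normalization. TFAM, which packages mitochondrial DNA, rose by 0.60, and OMA1, a stress-activated protease, was at 7.56 and 7.66 in control and 6.08 and 6.63 in shTSC2 (-1.25, SE 0.17, adjusted p = 0.00278). The calls of TOMM40 and SLC25A33 ended without control 2 (adjusted p = 0.0614 to 0.0742). The calls of TOMM70 and TFAM ended without control 1 or control 2 (adjusted p = 0.0529 to 0.0899). Over the 178 genes of the 4 lists here, rises and falls numbered 37 and 22, then 13 and 4 without control 1 and 5 and 2 without control 2.

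Small-molecule handling changed gene by gene. SLC39A10, a zinc importer, was at 9.17 and 9.39 in control and 7.32 and 7.34 in shTSC2, a fall of 1.95 (SE 0.11, adjusted p = 0.000256). SLC39A11 fell by 1.13 (SE 0.13, adjusted p = 0.00135). The importer SLC39A8 was at 9.32 and 9.28 in control and 9.98 and 9.96 in shTSC2 (0.67, SE 0.09, adjusted p = 0.00257). Zinc and copper transporters had 3 rises (9.68%) and 8 falls (25.8%) of 31, against 6.87% and 13.9% of all genes. With quantile normalization they had 6 and 6. The bicarbonate carriers SLC4A4 (-1.09, SE 0.09, adjusted p = 0.000583) and SLC4A8 (-1.43, SE 0.13, adjusted p = 0.000752), which take bicarbonate into the cell, fell. Carbonic anhydrase CA2 was at 7.12 and 7.26 in control and 9.20 and 8.03 in shTSC2 (1.43, SE 0.32, adjusted p = 0.0188). Transporters of bicarbonate, protons and monocarboxylates had 3 rises (7.89%) and 4 falls (10.5%) of 38, or 4 and 3 with median centring or the span trend removed.
In purine metabolism IMPDH2, the first committed step to guanine nucleotides, rose by 0.70 (SE 0.09, adjusted p = 0.00237). ATIC of the de novo route rose by 0.57, and PNP of salvage by 0.90 (SE 0.14, adjusted p = 0.00522). ADK, which turns adenosine into AMP, was at 8.81 and 8.75 in control and 7.26 and 7.41 in shTSC2 (-1.45, SE 0.10, adjusted p = 0.00039). NT5E, which makes adenosine outside the cell, fell by 0.94. The counts were 4 rises and 4 falls of 28 (14.3% each), or 7 and 3 with quantile normalization. ALAS1, the first enzyme of heme synthesis, was at 8.79 and 8.61 in control and 10.01 and 9.71 in shTSC2 (1.16, SE 0.15, adjusted p = 0.00243). ISCU, the scaffold for iron-sulfur clusters, rose by 0.73 (SE 0.10, adjusted p = 0.00248). The iron and heme list had 3 rises and 3 falls of 35 (8.57% each). That count was 7 and 2 with quantile normalization, 3 and 6 with centring on all probe sets and 2 and 8 without shTSC2 1.
Of 32 sphingolipid genes 7 rose and 7 fell (21.9% each). UGCG, which makes glucosylceramide, was at 9.64 and 9.82 in control and 8.35 and 8.46 in shTSC2 (-1.32, SE 0.12, adjusted p = 0.000759). CERS5, a ceramide synthase, fell by 0.87 (SE 0.12, adjusted p = 0.00258). The ceramidase ACER2 rose by 0.69 (SE 0.09, adjusted p = 0.00251). DGAT1, which completes triglycerides, was at 7.61 and 7.65 in control and 8.65 and 8.39 in shTSC2 (0.89, SE 0.11, adjusted p = 0.00203). PTDSS1, which makes phosphatidylserine, rose by 0.89 (SE 0.11, adjusted p = 0.00209). PLIN3, a coat protein of lipid droplets, was at 9.27 and 9.38 in control and 8.20 and 7.63 in shTSC2 (-1.41, SE 0.18, adjusted p = 0.00229). Glycerolipid and phospholipid genes had 4 rises (9.76%) and 6 falls (14.6%) of 41, or 6 and 4 with quantile normalization. The call of PNP ended without control 2 (adjusted p = 0.0642). The calls of CA2 and NT5E ended without control 1 or control 2 (adjusted p = 0.0584 to 0.124). The call of ATIC ended without control 2 or shTSC2 2 (adjusted p = 0.0696 to 0.173). Over the 205 genes of the 6 lists here, rises and falls numbered 24 and 32, then 11 and 14 without control 1 and 10 and 13 without control 2.

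Enzymes that build surface glycans changed strongly in both directions. FUT8, the core fucosyltransferase of N-glycans, was at 8.57 and 8.58 in control and 6.74 and 6.81 in shTSC2 (-1.80, SE 0.10, adjusted p = 0.000256). GLCE, the epimerase of heparan sulfate, was at 8.13 and 8.20 in control and 6.54 and 6.05 in shTSC2 (-1.87, SE 0.16, adjusted p = 0.000596). EXTL3, which starts heparan chains, was at 7.75 and 7.72 in control and 6.55 and 6.51 in shTSC2 (-1.21, SE 0.10, adjusted p = 0.000615). GCNT4, which branches O-glycans, rose by 1.50 (SE 0.21, adjusted p = 0.00312), and DPAGT1, the first enzyme of the N-glycan precursor, by 0.91 (SE 0.09, adjusted p = 0.00106). O-glycan and terminal sugar enzymes had 2 rises (3.39%) and 14 falls (23.7%) of 59, against 6.87% and 13.9% of all genes. Proteoglycan enzymes had 2 (4.76%) and 8 (19%) of 42. The N-glycan assembly line had 5 (13.5%) and 3 (8.11%) of 37, or 5 and 6 with centring on all probe sets.
Ligands seen by T and NK cells had 0 rises and 6 falls of 36 (16.7%), a share near the 13.9% of all genes. The butyrophilin BTN3A2 was at 6.95 and 7.32 in control and 6.14 and 5.05 in shTSC2 (-1.54, SE 0.33, adjusted p = 0.0166). BTN3A3 was at 6.03 and 5.86 in control and 5.27 and 4.40 in shTSC2 (-1.11, SE 0.25, adjusted p = 0.0197). BTN3A1 was at 6.25 and 6.96 in control and 5.99 and 5.45 in shTSC2 (-0.89, SE 0.25, adjusted p = 0.0432). BTN3A1 presents phosphoantigens to gamma delta T cells. These 3 genes are close copies, so their values may not be separate. The list's count of falls was 1 without control 1, 0 without control 2 and 2 without shTSC2 2.
The calcium-binding S100A4 was at 6.58 and 6.36 in control and 8.01 and 7.50 in shTSC2 (1.28, SE 0.18, adjusted p = 0.00274). S100A6 (0.75, SE 0.09, adjusted p = 0.00182) and S100A11 (0.69, SE 0.13, adjusted p = 0.0095) also rose. Their list had 4 rises (13.3%) and 1 fall (3.33%) of 30. CLDN1, a seal of tight junctions, was at 9.25 and 9.12 in control and 10.17 and 10.55 in shTSC2 (1.18, SE 0.18, adjusted p = 0.0041). TJP1, the scaffold that anchors claudins, fell by 0.92 (SE 0.13, adjusted p = 0.00313) and JAM3 by 1.03 (SE 0.15, adjusted p = 0.00317). Tight junction genes had 2 rises (4.76%) and 9 falls (21.4%) of 42. The receptor EPHA2 rose by 0.73 (SE 0.09, adjusted p = 0.00186) and its ligand EFNA5 fell by 1.36 (SE 0.11, adjusted p = 0.000524). Their list had 1 rise (4.76%) and 3 falls (14.3%) of 21, or 4 and 3 with the span trend removed. The tetraspanin TSPAN5, known for guiding ADAM10 to the surface, was at 8.37 and 8.49 in control and 6.52 and 6.59 in shTSC2 (-1.88, SE 0.18, adjusted p = 0.000834). The 28 tetraspanins had 1 rise (3.57%) and 6 falls (21.4%). The calls of S100A11 and CLDN1 ended without control 2 (adjusted p = 0.0521 to 0.0978). The calls of BTN3A2 and BTN3A3 ended without control 1 or control 2 (adjusted p = 0.0693 to 0.135). The call of BTN3A1 ended without control 2 or shTSC2 2, in a fit of the 4 arrays alone or with array weights (adjusted p = 0.0623 to 0.248). Over the 295 genes of the 8 lists here, rises and falls numbered 17 and 50, then 12 and 18 without control 1 and 5 and 15 without control 2.

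The share of small RNA genes that rose was near that of all genes. Of 173 microRNA genes measured 10 rose (5.78%, against 6.87% of all genes) and 0 fell, and none was called without control 1 or without control 2. The count was 9 without shTSC2 1 and 21 without shTSC2 2. With the span trend removed 2 rose and 1 fell. The array does not tell arms of a hairpin or a precursor from a longer transcript. All 10 are named here after their values were seen. Genes of the let-7 family made up 3 of them, MIRLET7A1 (0.52, SE 0.13, adjusted p = 0.0291), MIRLET7G (0.39) and MIRLET7I (0.39), of 10 measured genes whose mature arm has the seed GAGGUAG, over which changes ran from -0.07 to 0.68. MIR181B1 (0.42) and MIR181B2 (0.64, SE 0.15, adjusted p = 0.0211) share 1 mature arm from 2 loci, and 5 measured genes have its seed ACAUUCA, with changes of 0.09 to 0.64. MIRLET7A1, MIRLET7G and MIR181B1 were under 4.33 on both control arrays, with the same limit on size as PTGS2. The others were MIR132, MIR147A, MIR197, MIR320A and MIR330, at 0.34 to 0.57. MIR181B2 was at 4.78 and 4.66 in control and 5.57 and 5.15 in shTSC2. The mature arms that show the shared seeds, from RefSeq (GRCh38.p14), are printed with seed bases 2 to 8 in capitals.
hsa-let-7a-5p: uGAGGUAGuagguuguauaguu
hsa-let-7g-5p: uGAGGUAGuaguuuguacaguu
hsa-let-7i-5p: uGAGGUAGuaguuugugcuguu
hsa-miR-181b-5p: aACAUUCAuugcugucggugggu
Of 632 long noncoding RNA genes 40 rose (6.33%) and 17 fell (2.69%). With every probe set tested, where a gene may count more than once, 41 rose and 43 fell. MIR22HG, the host transcript of a microRNA, was at 6.38 and 6.45 in control and 8.57 and 7.42 in shTSC2 (1.58, SE 0.33, adjusted p = 0.0143). HCP5, a noncoding RNA of the HLA class I region, was at 6.11 and 6.26 in control and 8.83 and 7.41 in shTSC2 (1.94, SE 0.40, adjusted p = 0.0138). MIR31HG was at 4.98 and 5.26 in control and 3.93 and 3.89 in shTSC2 (-1.21, SE 0.14, adjusted p = 0.00157). Both shTSC2 arrays were dim there, under the first-quartile intensity (4.33), which leaves the size of the fall uncertain. These last genes are also named after their values were seen. The calls of MIR22HG and HCP5 ended without control 1 or control 2 (adjusted p = 0.0879 to 0.0988). Over the 805 genes of the 2 lists here, rises and falls numbered 50 and 17, then 9 and 7 without control 1 and 8 and 5 without control 2.

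Among olfactory receptors, potassium channels, HOX genes and keratins few members passed. Of 341 olfactory receptors 7 rose (2.05%) and 0 fell, of 73 potassium channels 0 and 1, and of 27 HOX genes 0 and 1. The median log2 level of the olfactory receptors was 4.05, under the first-quartile intensity (4.33). Potassium channels, HOX genes and keratins had median levels of 5.32, 5.75 and 5.09, under the median gene (6.49). Few calls in such dim families do not show that their genes were unchanged. With the span trend removed 4 potassium channels rose and 1 fell. KCNK1, a two-pore channel, was the falling potassium channel (-0.47, SE 0.10, adjusted p = 0.013), and HOXB7 the falling HOX gene (-0.65, SE 0.11, adjusted p = 0.00621). Keratins had 2 rises and 1 fall of 48. Metallothioneins, which bind zinc and copper, had 0 rises and 2 falls of 10, and 0 falls without control 1 or control 2. MT2A was at 11.74 and 11.58 in control and 11.25 and 11.13 in shTSC2 (-0.47, SE 0.11, adjusted p = 0.0207). MT1E fell by 0.51. Metallothionein genes are close copies, so MT1E may share signal with its relatives. With dim genes left out, 30 of the 499 genes of the 5 lists here were kept, of which 2 rose and 5 fell. The call of HOXB7 ended without control 2 (adjusted p = 0.077). The calls of KCNK1 and MT1E ended without control 1 or control 2 (adjusted p = 0.0718 to 0.125). The call of MT2A ended without control 1, control 2 or shTSC2 2 (adjusted p = 0.0612 to 0.17). Over the 499 genes of the 5 lists here, rises and falls numbered 9 and 5, then 0 and 1 without control 1 and 0 and 1 without control 2.

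Lists of long genes tended to have lower medians. Across the 113 lists, which share genes and arrays, Spearman's rank correlation between median span and median change was -0.43, given as a description. The HECT ligases stood at a median of -0.39, at a span of 149 kb. Receptor tyrosine phosphatases, with the longer span of 184 kb, had a median of 0.02 although 5 of 16 fell. Mediator subunits (-0.34 at 21.7 kb), hnRNP proteins (-0.25 at 13.4 kb) and tubulins (-0.21 at 8.29 kb) had low medians without long genes, and their falls were 14, 6 and 9 with the span trend removed, against 13, 6 and 7 without.

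**Figure D4:**
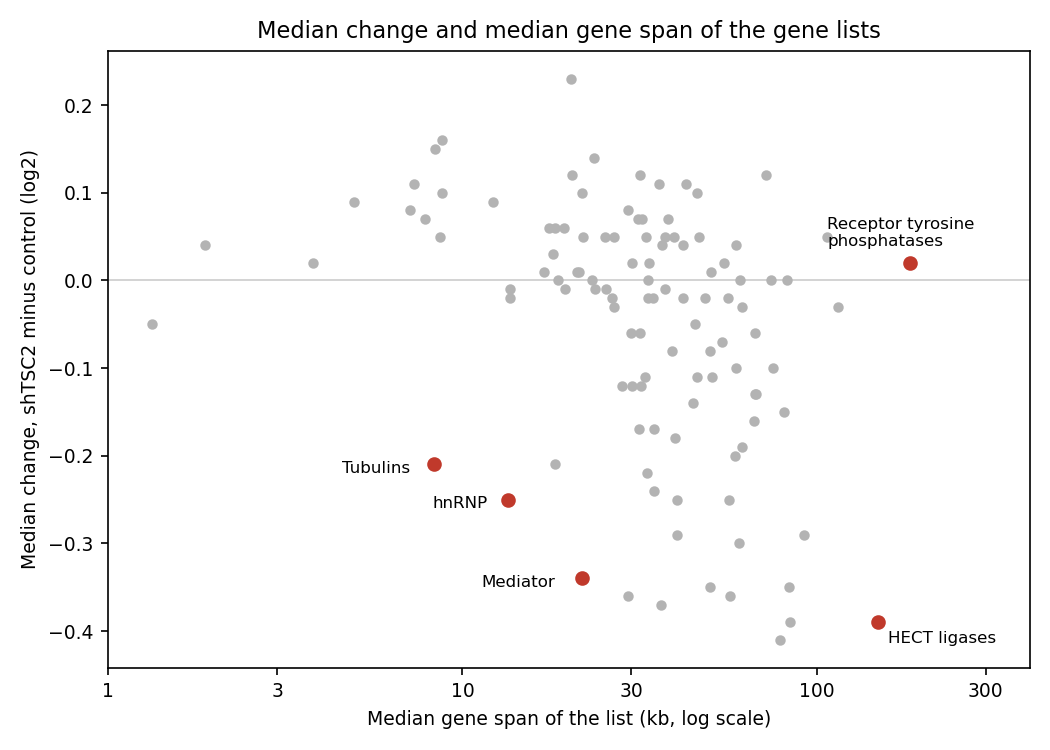
Median change (y axis, shTSC2 minus control, log2 intensity) against median gene span (x axis, kb, log scale) for the 113 gene lists, 1 point each, with the lists named in the paragraph above marked. HECT ligases lie at 149 kb and -0.39, and Mediator subunits at 21.7 kb and -0.34.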

How the data were processed

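Total RNA of Du145 cells was labelled with biotin and hybridised to whole-transcript expression arrays, 2 for each of 3 groups: control, shTSC2 and shTSC2-adapted. The deposited values are intensities on a linear scale, 1 for each of 33297 probe sets and array, made by the authors with RMA per the submitters' processing notes; RMA corrects background, normalizes between arrays and summarises probes. For the probe definition, the genome build and the RMA version nothing is given in the sources used here. Arrays give no counts, so precision rests on the number of arrays.

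The deposited intensities were turned into log2 values. Of the probe sets, 19460 have 1 gene symbol in the platform annotation, 1754 several and 12083 are unnamed here, and only the first were used. For genes with more than 1 probe set the brightest over all 6 arrays was taken, which left 18417 genes. Spans, mature microRNAs and promoters came from RefSeq tables (GRCh38.p14), and 18389 genes had a span. No coordinate of the array's own build was used.

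limma 3.58.1 in R 4.3.3 (lmFit and eBayes) was fitted to all 6 arrays, with the adapted arrays sharing only the estimate of spread, and Benjamini-Hochberg adjustment ran over all genes. The scripts were tested on simulated data. Gene families were lists by symbol, and some are not reported here. Members, lists and markers were chosen with earlier results of these data known, so no list was tested as a whole. Families are described by the number of members that passed, beside the share of all genes. Named genes are TSC2 and, in each list, up to 3 of the largest rises and falls that passed with no overlap between arrays. For marker lists they are the highest and the most changed gene, and other genes are said to be named after their value was seen. Alternatives were quantile normalization, median centring over genes or over all probe sets, dim genes left out, every probe set tested, the 4 arrays alone, array weights, the span trend removed, a replicate block and each array left out.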

Additional observations from a re-analysis of the deposited data

How the results depend on the processing

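Leaving out a control array changed the counts most. Without control 1, 1484 genes passed and without control 2, 1175, against 3833. Over the 6 fits that each left out 1 array, 1175 to 3895 genes passed, 228 to 1462 rose and 947 to 2715 fell. Such a fit assumes that the lone array of a group varies like the other groups. Members that fell numbered 9 to 23 for centrosomal proteins, 7 to 15 for Mediator, 4 to 8 for Integrator, 5 to 12 for histone demethylases, 6 to 13 for remodellers, 5 to 11 for Fanconi and recombination genes and 5 to 16 for retromer and ESCRT genes. Members that rose numbered 1 to 4 for clock genes, 1 to 6 for TNF ligands and receptors, 2 to 7 for RNA polymerases I and III and 1 to 9 for mitochondrial import. The lowest counts came without control 1 or control 2, and import also dropped to 6 without shTSC2 2. Each of these fits left out 1 array, and the cause of the lower counts was not tested. With dim genes left out 2 clock genes rose, fewer being tested. With centring on all probe sets, an alternative added after the data were seen, 3 TNF genes and 4 import genes rose. With the span trend removed 4 polymerase and 4 import genes rose. The cause was not tested.

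Of 198 named genes 191 passed, and 118 kept their call in each alternative that could be run. Changes of sign were counted only where a gene passed as reported or in the alternative, and there were 0. Without control 1, 53 lost the call and without control 2, 67, against 13 or fewer under any other setting. Array weights gave 1280 rises and 2650 falls, every probe set of a gene 1298 and 2652 of 19460, dim genes left out 1078 and 2264 of 9209, and leaving out either adapted array, which equals a fit of the 4 arrays alone, 1136 and 2401.

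With the replicate number as a block 1119 genes rose and 2417 fell. The numbers are not shown to pair the arrays: deviations from the group means correlated at -0.10 between control 1 and shTSC2 1, -0.19 between control 1 and shTSC2-adapted 1 and 0.21 between shTSC2 1 and shTSC2-adapted 1. The block ended the call of 6 named genes, BTN3A1, EZH2, KDM6B, MIR132, MIRLET7I and NR4A2 (adjusted p = 0.0519 to 0.0741).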
